A study of Mus musculus with 6 samples.

Results

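The tetraspanins Cd82, Cd9, Cd63, Cd81, Cd151, Cd37 and Cd53 were followed in total brain of mice that lack the neural cell adhesion molecule NCAM. Tetraspanins are small proteins that cross the membrane repeatedly and gather integrins, immunoglobulin-type proteins and proteases into local membrane assemblies, through which they influence adhesion, migration, membrane fusion and sorting to endosomes. In the brain Cd9 is known from myelin and its glia, Cd82 has been described in oligodendrocyte precursors, Cd81 is known from astrocytes, and Cd37 and Cd53 are leukocyte tetraspanins. The members were every probe set whose single gene symbol in the platform annotation was one of these 7 genes, 12 probe sets of 12422 on the array and 7 of 8251 genes. Cd151 had 4, Cd82 had 3 and the other 5 genes had 1 each. The family was chosen by the knockout against wild-type difference of Cd82, whose signals were known when the other genes were added, so every difference between the genotypes for these genes is a description without a test.

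The samples were total brain from 3 male mice with a constitutive knock-out of the Ncam gene, the gene named Ncam1 on the array, and from 3 male wild-type mice. All 6 animals had the same C57BL/6J background. Replicates 1 and 2 of either genotype were aged 2 months, and the third animal was aged 3 months. One-colour Affymetrix arrays were used, 1 per brain. The values are linear signal intensities. In whole brain, fewer cells of a type and less RNA per cell cannot be told apart.

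Median signals of the arrays lay between 119.2 and 130.2. The brightest Ncam1 probe set read 276, 209 and 327 in knockout brains, against 1346, 1448 and 1216 in wild-type brains. The labels do not say whether this probe set lies in the deleted stretch. Genes of the cerebellum were far lower in knockout replicate 2 than on the other 5 arrays, with a signal sum over 10 genes of 1748 there, against 7460 to 8662 elsewhere. Pituitary genes were far higher in knockout replicate 1, with a sum over 7 genes of 15816, against 1007 to 1480 on the other arrays. The 3' to 5' signal ratio of the Gapdh controls, a sign of RNA quality, lay at 0.811 to 0.826 in the knockout and at 0.768 to 0.798 in the wild-type brains, and its part in the results was not tested.

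Differences were taken as knockout minus wild type on the scale log2(signal + 16), which understates folds of dim probe sets. Of the 12 probe sets 9 passed the filter on dim values (a mean log2 value in the upper 60% of all probe sets, which corresponds to a signal of 72.2), and they stood for 6 of the 7 genes. The 3 that did not were the Cd53 probe set, the dimmest Cd82 probe set and the dimmest Cd151 probe set. In limma's fit over all 7453 tested probe sets, 0 of the 9 had an adjusted p under 0.05, where 0.0268% of all probe sets did. At an unadjusted p under 0.05 there were 2 of 9, against 6.94% of all. The signals of the genotypes did not overlap for 3 of the 9, against 12.9% of all tested probe sets, with 1 higher in knockout brains (6.08% of all) and 2 lower (6.8% of all). Because this contrast was used to choose the genes, nothing is read from these counts. The differences of the 9 ran between -0.62 and 0.51 on the log2 scale, with 4 above and 5 below 0. Their median was -0.00048, beside 0.0017 for all tested probe sets.

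**Figure D1:**
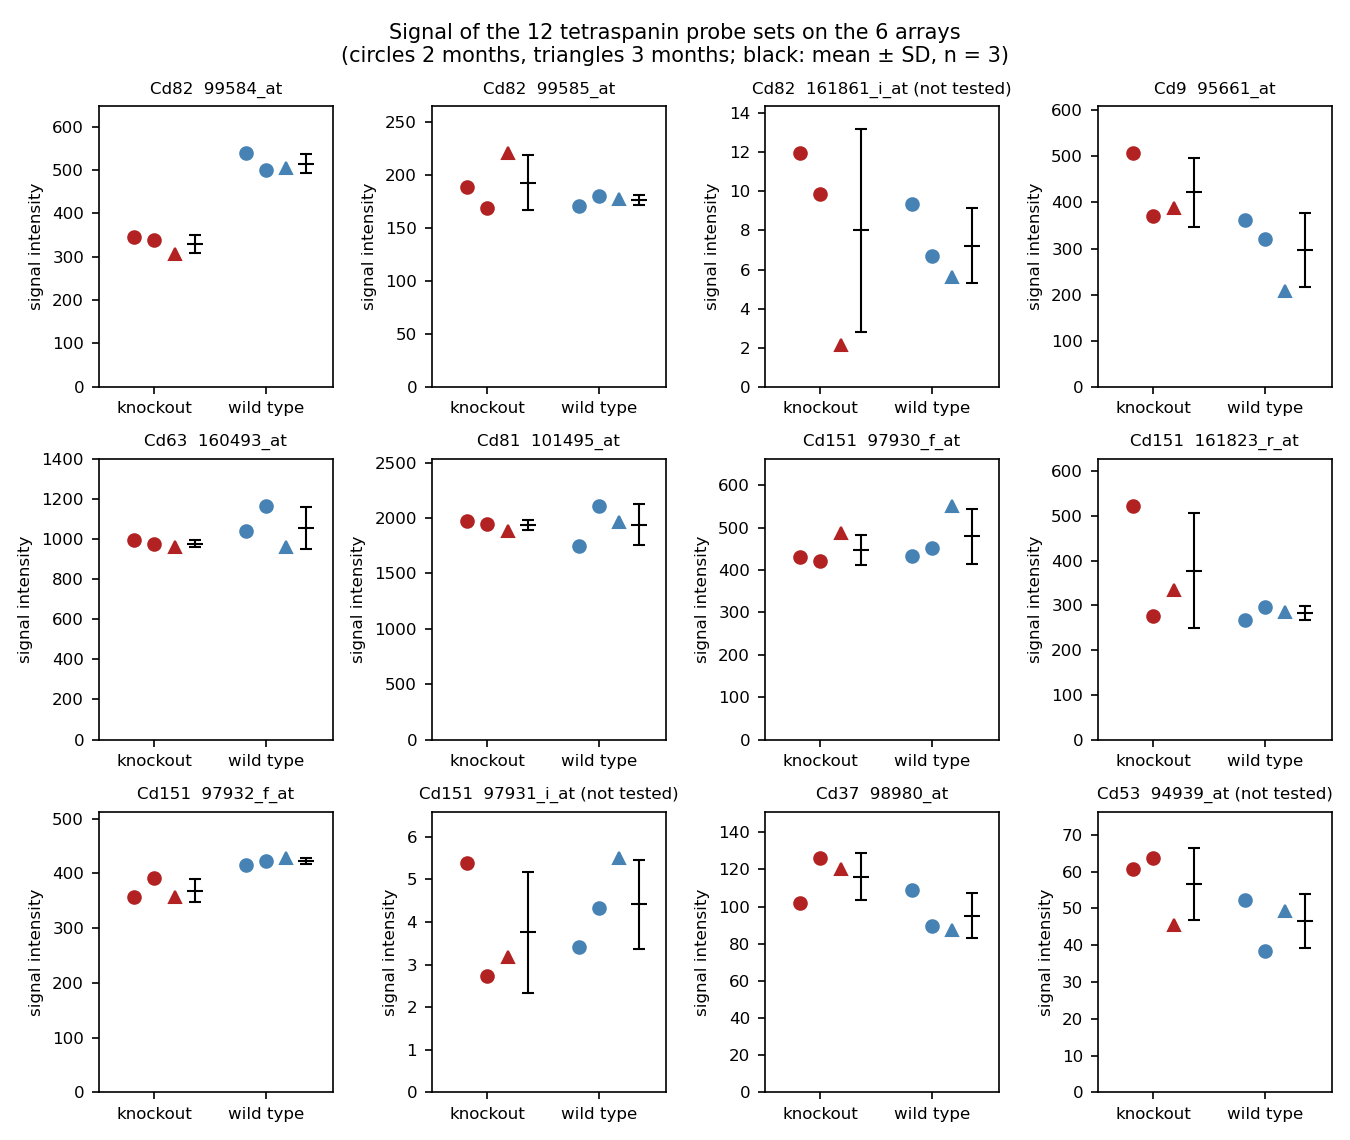
Signal intensity (vertical axes, linear, from 0) of the 12 tetraspanin probe sets in knockout brains (red) and wild-type brains (blue), with circles for 2-month-old animals, triangles for 3-month-old animals and black bars for the mean ± SD (n = 3). Cd82 99584_at lies at 306 to 345 in knockout brains and at 501 to 540.3 in wild-type brains, while Cd82 99585_at overlaps between the groups.

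Cd82, also called Kai1, is a tetraspanin known as a suppressor of metastasis that restrains cell migration and integrin signalling. Its brightest probe set, 99584_at, read 345, 339 and 306 in knockout replicates 1, 2 and 3, against 540.3, 501 and 504 in wild-type replicates 1, 2 and 3. All 3 knockout brains lay below all 3 wild-type brains. Because the family was chosen by the Cd82 difference, this gap and the ranges given next describe it and are no support for it. The means were 330.1 ± 21.1 in knockout and 515 ± 21.9 in wild-type brains (SD, n = 3), which gives -0.62 ± 0.09 (SE) in log2 terms, or 1.54-fold lower in knockout brains. With each array left out in turn the difference stayed between -0.65 and -0.57. In the 2-month-old animals it was -0.58, and between the 3-month-old animals, 1 of each genotype, it was -0.69.

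The second tested Cd82 probe set, 99585_at, gave another picture. It read 188, 169 and 221 in knockout brains, against 171, 180.2 and 178 in wild-type brains. The knockout animals lay on both sides of the wild-type range, and the difference was 0.11 ± 0.13, or 0.02 ± 0.12 without knockout replicate 3 and 0.20 ± 0.12 without knockout replicate 2. Knockout replicate 3 held both the lowest 99584_at signal and the highest 99585_at signal of all 6 brains. Set alone against the wild-type animals, a setting chosen after seeing the data, that brain differed by -0.72 on 99584_at and by 0.30 on 99585_at. The remaining Cd82 probe set, 161861_i_at, read 11.99, 9.88 and 2.13 in knockout brains and 9.34, 6.70 and 5.63 in wild-type brains, far below the filter limit. The 2 tested Cd82 probe sets thus disagreed in sign and size. Which Cd82 transcripts each probe set detects was not checked here.

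**Figure D2:**
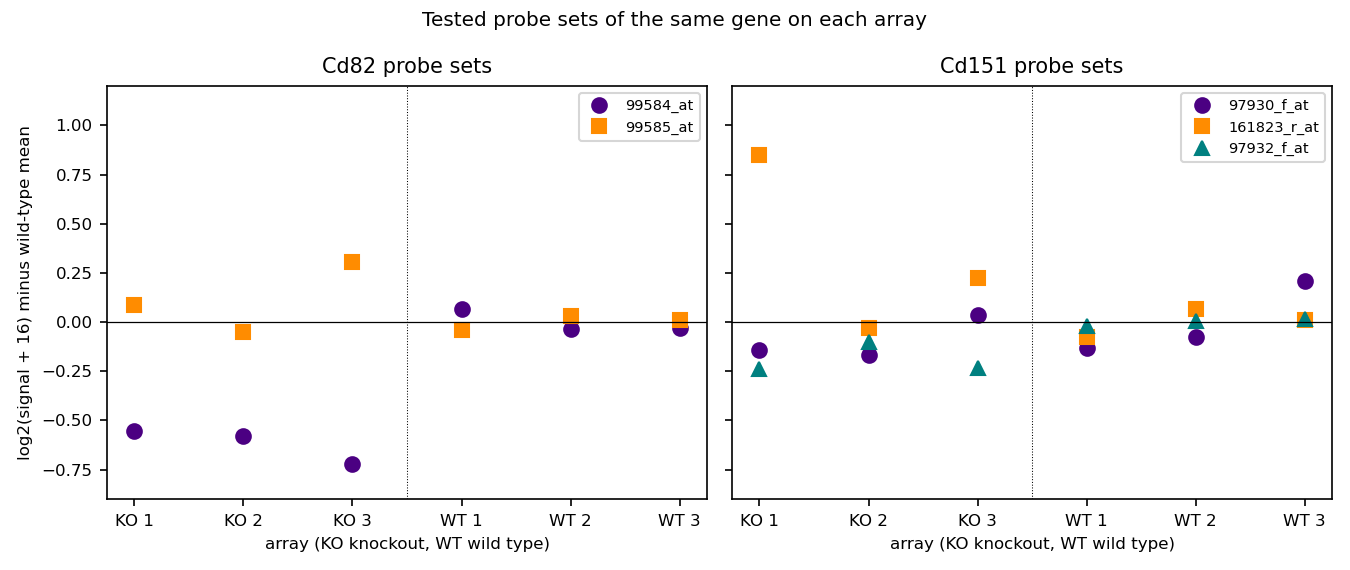
Deviation of each array from the wild-type mean of the same probe set (vertical axis, log2 scale) for the tested probe sets of Cd82 and Cd151, with knockout arrays left of the dotted line and wild-type arrays right of it. Cd82 99584_at lies at -0.56, -0.58 and -0.72 in knockout replicates 1, 2 and 3, whereas 99585_at lies at 0.09, -0.05 and 0.30.

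Most oligodendrocyte markers had lower means in the same brains. However, 0 of the 10 tested genes of that list passed in limma, beside 0.0177% of all genes. Of the 10, 7 had lower and 3 higher means in knockout brains, and 6 did not overlap between the groups, all of them lower, beside 12.8% of all 5665 tested genes without overlap in either direction and 7.08% lower. Their summed signal ran between 16900.2 and 18123 in knockout brains and between 18848 and 19951 in wild-type brains. The myelin-associated glycoprotein Mag had a mean signal of 759 ± 112 in knockout and 1030.5 ± 108 in wild-type brains (SD, n = 3), a log2 difference of -0.44. Sox10, a transcription factor of the oligodendrocyte lineage, had 648 ± 35.0 in knockout and 633 ± 2.59 in wild-type brains, a log2 difference of 0.03. The astrocyte list also had lower means for most genes, 6 of 8 tested, with 3 lower and 1 higher without overlap, beside 12.8% of all genes in either direction. Both lists were chosen with earlier results of these data known, so these counts are descriptions. The part of these cells in the Cd82 signal was not tested.

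Cd9, which helps membranes fuse, as in the egg at fertilisation, and sits in myelin and at its contacts with the axon, was measured by 1 probe set, 95661_at. It read 508, 369.7 and 387 in knockout replicates 1, 2 and 3, against 362.1, 320.1 and 208 in wild-type replicates 1, 2 and 3. The knockout brains lay above the wild-type brains, but knockout replicate 2 and wild-type replicate 1 were close to each other. The means were 422 ± 75.5 in knockout and 297 ± 79.6 in wild-type brains (SD, n = 3), a difference of 0.51 ± 0.20 on the log2 scale, or 1.42-fold higher in knockout brains. Both ends of the range lay in single brains, the highest in knockout replicate 1 and the lowest in wild-type replicate 3. Without knockout replicate 1 the difference was 0.37 ± 0.21, and without wild-type replicate 3 it was 0.28 ± 0.15. It was 0.34 in the 2-month-old animals and 0.85 between the 3-month-old animals, 1 of each genotype.

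Knockout replicate 1, with the highest Cd9 signal, was the brain with pituitary signal. The pituitary list lay 2.44 above the wild-type mean there, 0.14 in knockout replicate 2 and 0.44 in knockout replicate 3 (medians of 7 genes, log2), against -0.05, -0.34 and 0.20 in wild-type replicates 1, 2 and 3. Cd9 lay 0.78, 0.34 and 0.40 above its wild-type mean in the knockout brains. The part of pituitary RNA in the Cd9 difference was not tested, and the value without that brain is given above. The part of oligodendrocytes, whose markers are given with Cd82, was not tested either.

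Cd81, a partner of the immunoglobulin protein Igsf8, had nearly equal means in both genotypes. It read 1971, 1950.4 and 1885 in knockout brains, against 1745, 2114 and 1967 in wild-type brains. The knockout values lay inside the wild-type range, and the difference was -0.00048 ± 0.08 on the log2 scale. Its sign turned when single arrays were left out, with values between -0.07 and 0.06. The summed signal of the 8 tested astrocyte genes was 14064.5 to 14860.5 in knockout brains and 15313 to 15783 in wild-type brains, without overlap, and the median log2 difference of the list was -0.16. Of the 8 genes 6 had lower and 2 higher means in knockout brains. The brightest, Aldoc, weighs most in the sum, with 5624 ± 334 in knockout and 6270 ± 588 in wild-type brains, and its groups overlapped. Gja1 was higher in knockout brains without overlap, with 3308 ± 223 against 2933 ± 199. The part of the astrocyte genes in the Cd81 signal was not tested.

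Cd63 marks late endosomes, lysosomes and the vesicles they release. It read 995, 977 and 959 in knockout brains, against 1042, 1168 and 959 in wild-type brains. The groups overlapped, since wild-type replicate 3 was as low as the lowest knockout brain. The difference was -0.11 ± 0.09, with -0.03 without wild-type replicate 2 and -0.17 without wild-type replicate 3.

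Cd151 binds laminin-binding integrins and is known from endothelium and epithelium. The suffixes of all 4 of its probe sets mark reduced specificity or a reduced number of probes. Probe set 97932_f_at read 356, 392 and 357 in knockout brains, against 416, 424 and 427 in wild-type brains. These groups did not overlap, with a difference of -0.19 ± 0.09, which stayed between -0.23 and -0.17 as single arrays were left out. Probe set 97930_f_at, the brightest, read 431, 423 and 489 in knockout brains, against 434, 452 and 552 in wild-type brains. Here the groups overlapped, and the difference of -0.09 ± 0.11 turned to 0.01 without wild-type replicate 3 and was -0.16 without wild-type replicate 1.

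Probe set 161823_r_at of Cd151 had a difference of the opposite sign. It read 523, 276 and 333 in knockout brains, against 267, 297 and 285 in wild-type brains. Knockout replicate 1 stood far above all others, and the difference of 0.35 ± 0.20 was 0.10 ± 0.13 without it and 0.54 ± 0.18 without knockout replicate 2. The fourth Cd151 probe set, 97931_i_at, read under 6 on every array. Of the 3 pairs that the tested Cd151 probe sets form, 1 had differences of the same sign and 2 of opposite sign. Endothelial and mural cell markers, where Cd151 is known, had 8 of 10 tested genes with lower and 2 with higher means in knockout brains, and their summed signal was 1775 to 2120 in knockout against 2034 to 2169 in wild-type brains. Their part in the Cd151 signal was not tested.

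**Figure D3:**
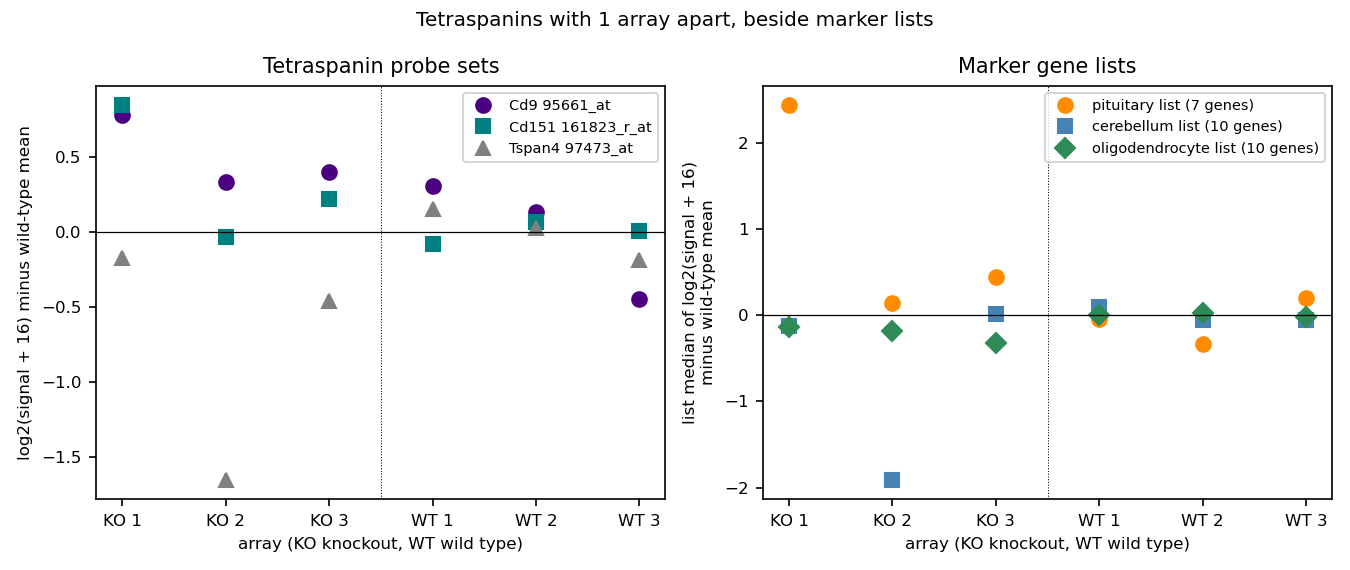
Left, deviation from the wild-type mean (log2 scale) of Cd9, of Cd151 161823_r_at and of Tspan4 on each array. Right, median deviation of the pituitary, cerebellum and oligodendrocyte marker lists. Cd9 and Cd151 161823_r_at are highest in knockout replicate 1, where the pituitary list lies at 2.44, and Tspan4 is lowest in knockout replicate 2, where the cerebellum list lies at -1.92.

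The leukocyte tetraspanins were dim. Cd37, which organises receptors on B cells, read 102, 126 and 120.2 in knockout brains, against 109, 89.5 and 87.3 in wild-type brains. The groups overlapped because knockout replicate 1 lay below wild-type replicate 1, and the difference was 0.25 ± 0.15. Cd53, a tetraspanin of most white blood cells that microglia also carry, read 60.8, 63.6 and 45.5 in knockout brains, against 52.4, 38.4 and 49.3 in wild-type brains. All 6 Cd53 values were below the filter limit, so it was not tested.

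Markers of the cells that carry Cd37 and Cd53 were set beside them. Of 8 tested microglial genes 4 had higher and 4 lower means in knockout brains, 0 of the 8 were without overlap, beside 12.8% of all genes, and their summed signal ran between 4446 and 5001 in knockout brains and between 4652 and 4760.4 in wild-type brains. The macrophage receptor Csf1r had 555 ± 114 in knockout and 546 ± 101 in wild-type brains (SD, n = 3). Of the blood leukocyte list 4 genes of 12 were bright enough to be tested, with sums between 821 and 914 in knockout brains and between 829 and 866 in wild-type brains. Of the 4, 3 had higher means and 1 a lower mean, and the median log2 difference was 0.14. The immunoglobulin gene Ighm, the brightest, had 447 ± 42.6 in knockout and 494 ± 37.0 in wild-type brains (SD, n = 3). The neutrophil peptide gene Camp, at 132 ± 28.6 in knockout and 105 ± 5.24 in wild-type brains, was the 1 gene without overlap. The part of these cells in the Cd37 signal was not tested.

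The labels also give the animals' age, which played no part in choosing the genes, and this comparison was tested. In limma's fit with genotype as a term, 0 of the 9 probe sets passed at an adjusted p under 0.05 for 3 months against 2 months, beside 0.0268% of all probe sets. At an unadjusted p under 0.05 there were 2 of 9, Cd9 and 1 Cd151 probe set, against 12.4% of all. Of the 9, 7 had lower and 2 higher means at 3 months. The 3-month-old animals were 1 of each genotype, and both carry replicate number 3, so age and that number cannot be told apart.

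Cd9 averaged 298 in the 3-month-old and 390.1 in the 2-month-old animals, -0.41 ± 0.16 on the log2 scale (limma, adjusted p = 0.365). Both ages overlapped, since the 3-month-old knockout animal read more than 3 of the 4 younger animals. Without wild-type replicate 3 the difference was -0.16 ± 0.20, and without knockout replicate 3 it was -0.67 ± 0.20. Cd151 97930_f_at averaged 521 in the 3-month-old and 435 in the 2-month-old animals, a difference of 0.25 ± 0.08 (limma, adjusted p = 0.307). It was 0.19 ± 0.12 without wild-type replicate 3 and 0.19 ± 0.09 with median centring. Both older brains lay above all 4 younger brains, but the share of all probe sets separated in this way was not counted. The other tested Cd151 probe sets gave -0.02 ± 0.09 on 97932_f_at and -0.08 ± 0.22 on 161823_r_at. Cd82 had -0.10 ± 0.09 on 99584_at and 0.15 ± 0.12 on 99585_at, with adjusted p of 0.647 and 0.619 in limma. As single arrays were left out, 99584_at lay between -0.15 and -0.05 and 99585_at between 0.02, without knockout replicate 3, and 0.29, without wild-type replicate 3. Cd63 had -0.12 ± 0.08, Cd81 -0.01 ± 0.08 and Cd37 -0.04 ± 0.16, with adjusted p between 0.544 and 0.965 in limma. Cd63 lay between -0.20 and -0.04 as single arrays were left out, while Cd81, Cd37 and both of those other Cd151 probe sets changed sign.

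**Figure D4:**
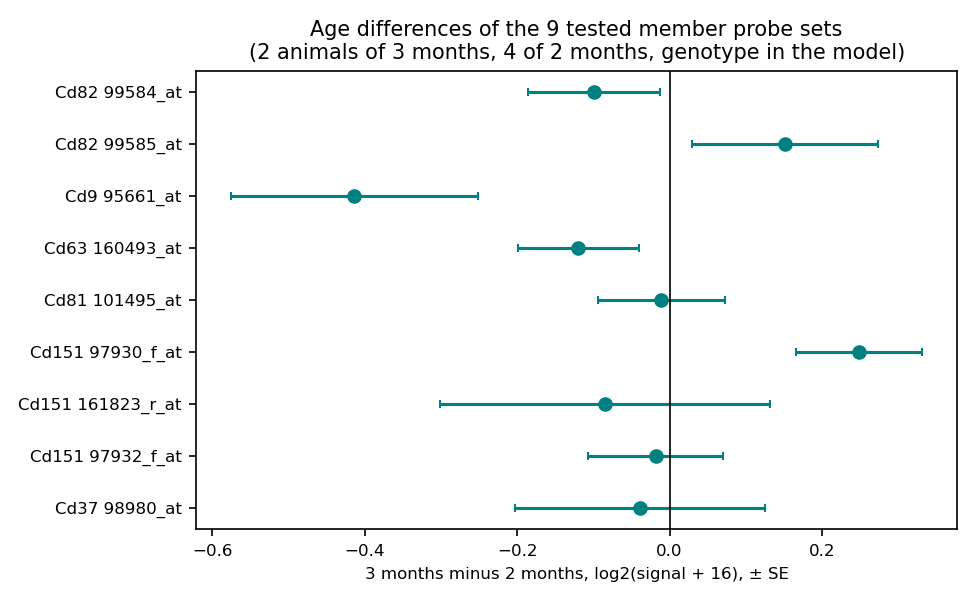
Differences between 3-month-old and 2-month-old brains (horizontal axis, log2 scale, ± SE from limma with genotype in the model) for the 9 tested member probe sets. Cd9 lies lowest at -0.41 and Cd151 97930_f_at highest at 0.25, and none passed the test.

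Further tetraspanins were taken from a list of 24 genes, of which 13 had a probe set with that single symbol and 8 were tested, each by its brightest probe set. None of the 8 passed, beside 0.0177% of all 5665 genes taken in the same way, and for 0 of the 8 did the genotypes separate, beside 12.8% of all genes. Higher means were found for 3 and lower for 5, with a median log2 difference of -0.12, against -0.0016 for all genes. At an unadjusted p under 0.05 in limma there was 1 of 8, Tspan4, beside 6.78% of all genes.

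Tspan4 read 178, 53.5 and 143 in knockout brains, against 228, 207 and 177 in wild-type brains. Knockout replicate 2, the brain with low cerebellar signal, stood far below the rest. The difference was -0.76 ± 0.33 (limma, adjusted p = 0.719), and -0.31 without that brain. Tspan9 was also lowest there, at 642, against 1057 and 1116 in the other knockout and 973 to 1058 in the wild-type brains. Its difference of -0.16 ± 0.18 turned to 0.09 without knockout replicate 2 and was -0.30 without knockout replicate 1. The part of cerebellar tissue in these 2 genes was not tested.

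None of the other 6 tested tetraspanins passed either. Tspan13 lay 0.34 ± 0.16 higher on the log2 scale (limma, adjusted p = 0.741), which was 0.17 without wild-type replicate 3. Tspan12, a coreceptor in Norrin signalling of retinal vessels, had 0.21 ± 0.17, or 0.12 without knockout replicate 2. Tspan5, which guides the protease Adam10 to the cell surface, had -0.21 ± 0.13, with -0.12 without wild-type replicate 3 and -0.34 without wild-type replicate 2. Tspan33, of the same group of Adam10 regulators, had -0.13 ± 0.09, or -0.08 without wild-type replicate 3. Tspan31 had -0.11 ± 0.16 and lay between -0.25 and -0.0055 as single arrays were left out. Tspan6 had 0.02 ± 0.15, and its sign turned, with values between -0.10 and 0.08. Adjusted p in limma was between 0.765 and 0.991 for these last 5.

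**Figure D5:**
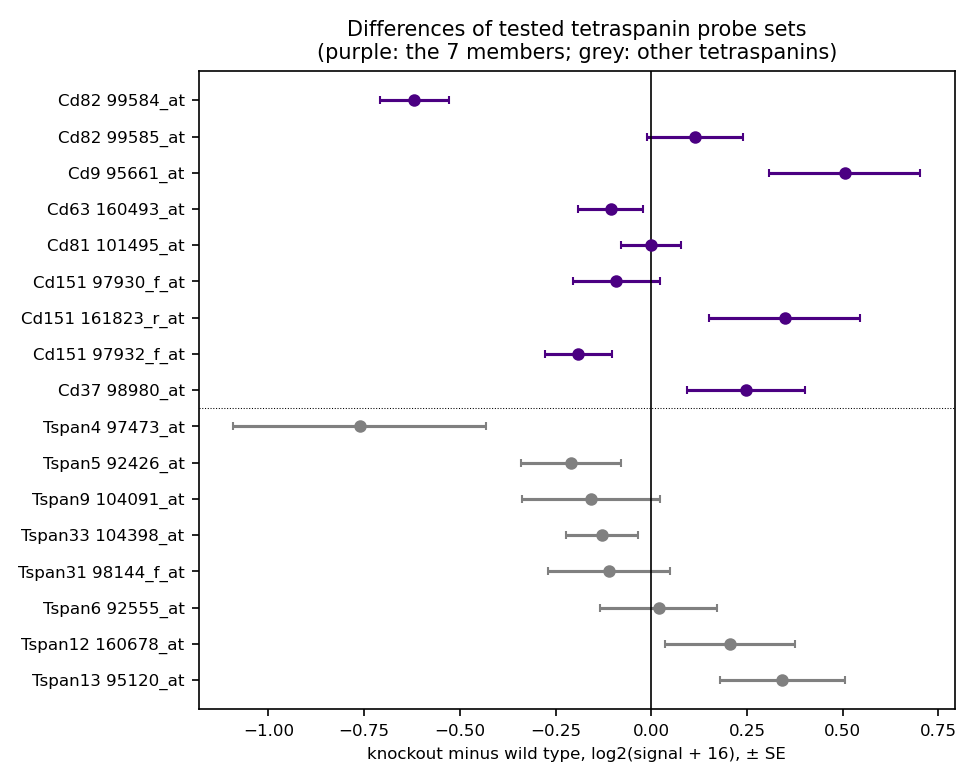
Knockout minus wild-type differences (horizontal axis, log2 scale, ± SE from limma) for the 9 tested probe sets of the 7 members (purple) and for the 8 other tested tetraspanins (grey). The members run between -0.62 for Cd82 99584_at and 0.51 for Cd9, and the 2 Cd82 probe sets lie on opposite sides of 0.

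Some of these genes lie side by side in the genome. In the gene order of RefSeq assembly GRCm38.p6, 0 coding genes lie between Cd82 and Tspan18, 0 between Cd81 and Tspan32, and 1 between Cd151 and Tspan4. Of the 7 members, Cd81, Cd151 and Cd37 lie on chromosome 7, and none lies on chromosome 9, which carries Ncam1. Tspan18 was not analysed here and Tspan32 was too dim to be tested, so Cd151 and Tspan4 form the single close pair that was measured on both sides.

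Known partners of tetraspanins were taken from a list of 41 genes, of which 36 had a probe set and 23 were tested. Of these 0 rose and 0 fell in limma, beside 0.0177% of all genes that passed in either direction. At an unadjusted p under 0.05 in limma there were 2 of the 23, beside 6.78% of all genes. Means were higher for 8 and lower for 15, with a median log2 difference of -0.03. The genotypes did not overlap for 3, which is 13.0% of the 23, beside 12.8% of all genes in either direction. All 3 were lower in knockout brains, beside 7.08% of all genes that were lower without overlap. Itgb4, the integrin subunit of the laminin receptor that Cd151 binds, read 42.4, 108 and 36.6 in knockout brains, against 117, 132 and 150.1 in wild-type brains. Its difference was -1.03 ± 0.30 (limma, adjusted p = 0.552), and 2 of the 3 knockout values were below the filter limit. Timp1, a protease inhibitor that binds Cd63, had 384, 329.8 and 150.3 in knockout brains and 387, 497 and 511 in wild-type brains. Its log2 difference of -0.75 ± 0.29 (limma, adjusted p = 0.719) was -0.36 without knockout replicate 3.

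The other partners named by lowest p were close to their spread. Ifitm3, an interferon-induced membrane protein, had -0.20 ± 0.11, or -0.13 without knockout replicate 3, and did not overlap between the groups, and the receptor tyrosine kinase Kit had -0.19 ± 0.13, or -0.07 without knockout replicate 2. On the other side, Ifitm1, another interferon-induced membrane protein, had 0.30 ± 0.23, or 0.10 without knockout replicate 3. The peptidase Dpp4 had 0.18 ± 0.15, the membrane protease Mmp14 0.13 ± 0.13 and the adhesion molecule L1cam 0.15 ± 0.14. As single arrays were left out, Dpp4 lay between 0.11 and 0.26 and Mmp14 between 0.03 and 0.24. The direct partner Igsf8 read 1602 ± 45.8 in knockout and 1537 ± 53.4 in wild-type brains (SD, n = 3), and the integrin subunit Itgb1 had -0.03 ± 0.08, which turned to 0.03 without wild-type replicate 2. The adjusted p from limma was between 0.743 and 0.948 for these 8 genes.

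Genes of endosomes, lysosomes and released vesicles, the compartment of Cd63, came from a list of 24 genes, with 19 tested. Of these 0 passed in limma, beside 0.0177% of all genes, and 2 had an unadjusted p under 0.05, beside 6.78%. Means were higher for 8 and lower for 11, and the median log2 difference was -0.01. The genotypes did not overlap for 4 of the 19, 1 higher and 3 lower in knockout brains, beside 12.8% of all genes. Lamp1, a lysosomal membrane protein, read 2865, 2662 and 2732 in knockout brains, against 3205, 3079 and 3061 in wild-type brains, -0.18 ± 0.06 in log2 terms (limma, adjusted p = 0.619). Flot1, a scaffold of membrane rafts, had -0.26 ± 0.08 (adjusted p = 0.624 in limma). Atp6ap2, a proton pump accessory protein, had 0.15 ± 0.07 and the cholesterol transporter Npc1 0.10 ± 0.10, or 0.01 without knockout replicate 3. The fourth gene without overlap was Rab7, a regulator of late endosomes, with -0.16 ± 0.08.

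Genes whose log2 signals ran most like those of a member over the 6 arrays were listed by Pearson correlation. This is a description over 6 points, among the tested probe sets with a single gene symbol outside the members. Cd82 99584_at was followed most closely by Higd2a (r = 0.984), Jund (0.981) and Nudt1 (0.980), and Cd82 99585_at by Fzd2 (0.987), Samd4b (0.983) and Col5a1 (0.983). The signals of 99584_at hold the genotype gap that chose the family, so its correlations include that gap and are no support for it. Higd2a, Jund and Nudt1 had knockout minus wild-type differences of -0.10, -0.15 and -0.20. Because the 2 Cd82 probe sets ran apart over the arrays, they could not share a gene at correlations this high. Cd9 was followed by Mpdz (0.977), Pdxdc1 (0.973) and Nek6 (0.970), and Cd37 by Csk (0.996), Il17ra (0.991) and Ndufa3 (0.977). Correlations above 0.95 were held by between 6 and 30 probe sets for each of the 7 member probe sets named here, the 30 being those of Cd82 99585_at. For Cd63 the closest were F2r (0.983), Elob (0.975) and Fto (0.963), for Cd81 Tmem199 (0.969), Tubb3 (0.962) and Syt3 (0.962), and for the brightest Cd151 probe set Zfp93 (0.983), Wdr75 (0.977) and Stag2 (0.977).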

How the data were processed

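Per the labels, total RNA of each brain was extracted with Trizol, cleaned up and turned into biotinylated cRNA for one-colour Affymetrix arrays. The submitters' processing notes name GCOS 1.4, without settings. The authors deposited 12488 linear signal intensities for each array, whose means over the middle 96% were 300.2 on all 6 arrays, as after scaling to 1 target. The number of arrays limits the precision.

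After 66 control entries were set aside, log2(signal + 16) was taken and the 7453 of 12422 probe sets at or above the 40th percentile of mean log2 value were tested with limma 3.58.1 in R 4.3.3 (lmFit, eBayes with an intensity trend, two-sided). Genotype was fitted without covariates and age with genotype as a term. Adjusted p values are Benjamini-Hochberg values over all 7453 probe sets. Gene lists used the brightest probe set of a gene. The script was tested on simulated data. Gene names came from the platform annotation. Figures were drawn with matplotlib 3.10.9.

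The members and lists were chosen with earlier results of these data known. The rule for naming genes took every member probe set, Ncam1, all other tested tetraspanins, the partners (4 in each direction) and endosomal genes (2 in each direction) with the lowest p, and the 3 genes most correlated with each member. Mag, Sox10, Aldoc, Gja1, Csf1r, Igsf8, Itgb1, Rab7, Camp and Ighm were named after their values were seen. Alternatives left out each array or the older animals, added the replicate block or age, dropped the genotype term, changed the scaling (quantile normalization, median centring) or the pseudocount (1 and 64), removed the filter or raised it to the 60th percentile, and fitted with array weights or with no intensity trend. Leaving out knockout replicates 1 and 2 together was added after seeing the data. Deviations from the group means of same-numbered animals correlated at 0.01, 0.15 and 0.20, and those of differently numbered animals at -0.22 to 0.08. The numbers were not taken as pairs in the main fit, and the replicate block was fitted as an alternative.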

Additional observations from a re-analysis of the deposited data

Results flagged for a closer look

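For 2 dim probe sets of the 12, neither of them tested, both 2-month-old knockout brains lay above both 2-month-old wild-type brains. In the same 2 the 3-month-old knockout brain lay below the 3-month-old wild-type brain. The share of all probe sets with this pattern was not counted, so nothing about the family is read from these 2. For Cd53 the knockout minus wild-type difference at 3 months was 0.45 lower on the log2 scale than at 2 months (-0.45, with -0.09 at 3 months and 0.36 at 2 months). Cd82 161861_i_at read below the pseudocount of 16 on every array and was not shown to be above background. Its value was -0.42, with -0.25 at 3 months and 0.17 at 2 months. Neither difference between ages was tested, and each rests on 1 animal of each genotype at 3 months.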

How the results depend on the processing

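None of the 9 tested tetraspanin probe sets passed at an adjusted p under 0.05 in limma under any of the 18 alternatives for genotype or the 15 for age. Without a filter 12 member probe sets were tested, and with the 60th-percentile filter 7. Over all probe sets, 2 passed for genotype (1 to 4 under the alternatives) and 2 for age (0 to 5). For age, 0 passed without an intensity trend and without wild-type replicate 1, 2 or 3, and 5 without knockout replicate 3. For genotype, 4 passed with array weights. With the replicate block 0 of the 9 passed, and Cd82 99584_at had an SE of 0.09 around its difference of -0.62, which the block cannot change in this balanced design. Over 17 of the alternatives this probe set ranged between -0.65 and -0.56, and Cd9 between 0.28 and 0.66. With knockout replicates 1 and 2 left out together, a setting chosen after seeing the data that leaves 1 knockout brain, Cd82 99584_at had -0.72. With array weights Cd151 161823_r_at had 0.57, beside 0.35, and Cd37 had 0.15, beside 0.25. In 5 of the 18 the difference itself cannot change, and in the other 13 Cd81 had its sign in 7 and Cd151 97930_f_at in 11. Each group had 3 animals, and arrays, ages and replicate numbers were too few to separate.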
